A study of Mus musculus with 15 samples.

Results

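This account covers the amino acid transporter families SLC1, SLC3, SLC6, SLC7, SLC36, SLC38 and SLC43 in mouse LSK cells, a sorted bone marrow population of hematopoietic stem and progenitor cells. Members were all genes whose only symbol on the array begins with Slc, 1 of these family numbers, the letter a and a digit. The rule found 64 of the 22180 genes measured: 7 of Slc1, 2 of Slc3, 20 of Slc6, 16 of Slc7, 5 of Slc36, 11 of Slc38 and 3 of Slc43. By their names, 61 of the 64 are transporter genes, and the other 3 (Slc7a6os, Slc36a1os and Slc6a19os) are genes on the strand opposite a transporter gene that the rule also took in. Slc6a9 shares its probe set with Ccdc24 and was not analysed here.

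Expression was compared in 3 groups of 5 biological replicates, with 1 Affymetrix Mouse Gene 2.0 array for each replicate. The groups were LSK cells taken straight after sorting (non-cultured), cells held for 18 h in MyeloCult M5300 medium without extracellular vesicles (EV), and cells held for 18 h in the same medium with EV shed by AFT stromal cells. The labels name no genotype, strain, age, vesicle dose or cytokine, and do not say whether a replicate was a single animal or a pool. A gene was called where limma, fitted over all genes, gave a Benjamini-Hochberg adjusted p under 0.05. Signals and differences are on the log2 scale, and a signal depends on the probes as well as on the RNA, so levels are compared between groups within a gene and not between genes.

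Amino acids cross cell membranes mainly through carrier proteins. SLC7 light chains such as SLC7A5 (LAT1), which exchanges large neutral amino acids, and SLC7A11 (xCT), which takes up cystine in exchange for glutamate, reach the cell surface bound to the SLC3A2 heavy chain, also known as CD98 or 4F2hc. SLC7A1 (CAT1) brings in arginine and lysine without a heavy chain, SLC1A5 (ASCT2) and the SNAT carriers SLC38A1 and SLC38A2 handle glutamine and small neutral amino acids, and SLC36A1 and SLC38A9 sit in lysosomes, where SLC38A9 reports arginine to the kinase complex mTORC1. When amino acids are short the kinase GCN2 raises ATF4, which binds amino acid response elements in genes such as Slc7a11, Slc7a5 and Asns, while NRF2 drives Slc7a11 through antioxidant response elements.

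Of the 64 members, 47 have a promoter in the RefSeq table (GRCm38.p6), among them 9 of the 14 members called after culture. The 250 bases before each annotated start were searched on both strands for TGATGNAAN (the core of an amino acid response element), TGACNNNGC (the core of an antioxidant response element) and CACGTG (an E-box, the site of the lysosomal regulator TFEB among others). Over all 32851 promoter windows of the same length, 3.44% held the amino acid response core, 10.2% the antioxidant core and 6.02% the E-box; counted by gene, with a match in any window, the shares were 3.89%, 11.5% and 6.86%. Of the 47 members 3, 8 and 9 held them in that order. Slc7a11, Slc38a2, Slc7a1 and Slc36a1 are shown because they hold a match, and Slc3a2 because its product partners the SLC7 light chains. Capitals mark the matches.
Slc7a11 (chr3:50443614-50443863, minus strand): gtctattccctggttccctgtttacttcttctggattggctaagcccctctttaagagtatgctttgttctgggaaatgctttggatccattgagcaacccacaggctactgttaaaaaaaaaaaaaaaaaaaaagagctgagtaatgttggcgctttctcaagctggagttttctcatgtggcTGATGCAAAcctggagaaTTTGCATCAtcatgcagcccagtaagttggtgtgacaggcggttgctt
Slc3a2 (chr19:8713898-8714147, minus strand): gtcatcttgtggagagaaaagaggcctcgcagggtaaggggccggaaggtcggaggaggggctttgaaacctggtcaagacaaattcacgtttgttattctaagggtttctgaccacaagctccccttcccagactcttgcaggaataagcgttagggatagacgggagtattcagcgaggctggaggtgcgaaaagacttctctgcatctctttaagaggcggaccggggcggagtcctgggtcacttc
Slc7a1 (chr5:148399905-148400154, minus strand): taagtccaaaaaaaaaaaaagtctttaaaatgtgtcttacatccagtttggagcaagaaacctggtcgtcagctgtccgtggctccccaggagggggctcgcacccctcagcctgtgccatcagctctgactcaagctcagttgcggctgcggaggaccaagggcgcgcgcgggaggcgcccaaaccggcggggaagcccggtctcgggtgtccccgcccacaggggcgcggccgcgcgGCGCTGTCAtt
Slc38a2 (chr15:96699729-96699978, minus strand): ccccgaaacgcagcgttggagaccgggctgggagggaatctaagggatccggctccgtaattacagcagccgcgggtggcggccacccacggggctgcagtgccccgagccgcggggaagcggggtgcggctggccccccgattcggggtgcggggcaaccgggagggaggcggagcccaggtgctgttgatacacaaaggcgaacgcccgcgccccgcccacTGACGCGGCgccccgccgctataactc
Slc36a1 (chr11:55204090-55204339, plus strand): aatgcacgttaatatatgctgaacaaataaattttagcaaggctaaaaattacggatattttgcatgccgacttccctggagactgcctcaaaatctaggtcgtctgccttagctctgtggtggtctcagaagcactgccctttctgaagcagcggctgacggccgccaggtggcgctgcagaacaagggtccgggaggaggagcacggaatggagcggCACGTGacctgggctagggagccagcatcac

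The Slc7a11 window held the amino acid response core in both orientations, as TGATGCAAA from 66 to 58 bases before the start and as TTTGCATCA from 48 to 40 bases before it. Among the called members, 1 of the 9 with a window held that core: Slc7a7, in 2 of its 5 windows. The antioxidant core was found in 2 of the 9, Slc38a2 and Slc7a1, and the E-box in 1, Slc36a1, from 31 to 26 bases before its start. The Slc3a2 window held none of the 3 motifs. It lies inside the annotated span of the gene (chr19:8706882-8723369), and the bases before the upstream end of that span were not searched. The same holds for the Slc7a11 window (gene span chr3:50364936-50499087) and for the Slc7a7 windows (gene span chr14:54369442-54420068). These are matches of letters within 250 bases, not measured sites.

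After culture without EV Slc7a5, Slc7a1, Slc3a2, Slc38a1, Slc36a4, Slc1a5 and Slc38a2 fell, and Slc43a2, Slc38a9, Slc36a1, Slc7a7, Slc6a6, Slc7a4 and Slc38a6 rose. Carriers of the cell surface were on both sides. Of the 64 members 7 rose and 7 fell against non-cultured cells, while 6.75% of all genes rose and 6.88% fell. In all, 14 of 64 members (21.9%) were called, with 13.6% of all 22180 genes called. The median difference was 0.01 over the members and 0.01 over all genes. In 12 of the 14 the groups did not overlap, 6 higher and 6 lower. Over all 22180 genes 5.89% were higher and 6.10% lower without overlap.

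**Figure D1:**
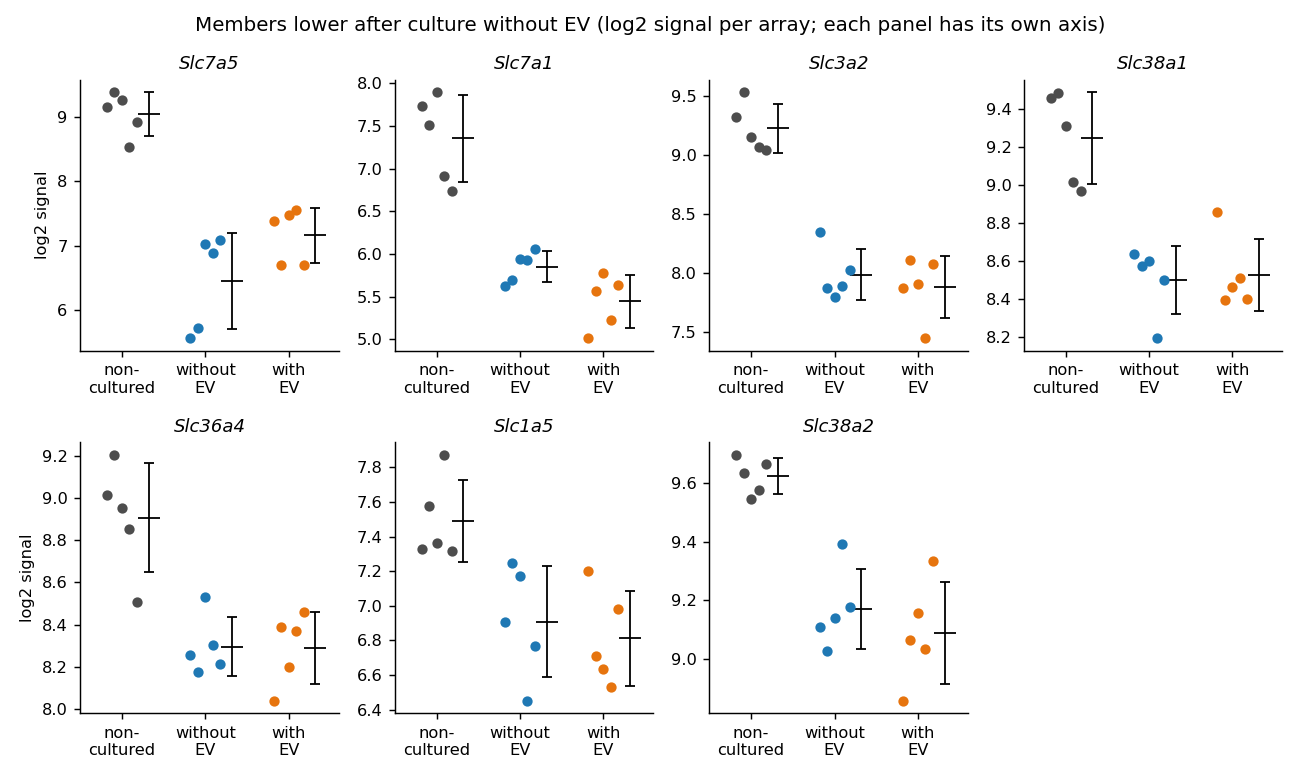
Log2 signal of the 7 members that fell after culture without EV. Each point is 1 array, the bars are the mean and SD of 5 arrays, and every panel has its own vertical axis. In Slc7a5, Slc7a1 and Slc3a2 every cultured array lay below every non-cultured array.

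The transcripts of the light chain gene Slc7a5 and of its heavy chain gene Slc3a2 both fell. Protein was not measured. Slc7a5 read 9.15, 9.38, 9.26, 8.53 and 8.92 in non-cultured replicates 1 to 5, and 5.56, 5.73, 7.02, 6.88 and 7.09 without EV. The groups did not overlap, and replicates 1 and 2 without EV were the lowest of all 15 arrays. The fall of Slc7a5 was 6.03-fold (log2 -2.59, SE 0.30, 5 arrays a group, adjusted p = 1.97e-05 by limma). Slc3a2 read 9.33, 9.54, 9.16, 9.07 and 9.05 in non-cultured cells and 8.35, 7.88, 7.80, 7.89 and 8.03 without EV. Slc3a2 fell 2.37-fold (log2 -1.24, SE 0.14, adjusted p = 1.55e-05), and here too every cultured array was below every non-cultured one.

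Slc7a1, the arginine and lysine carrier, fell 2.84-fold (log2 -1.50, SE 0.21, adjusted p = 0.000113). Its signal was 7.73, 7.51, 7.90, 6.91 and 6.73 in non-cultured cells and 5.63, 5.70, 5.94, 5.93 and 6.06 without EV. Non-cultured replicates 4 and 5 were lower than replicates 1 to 3 and still lay above all cultured arrays. The same pair of arrays was lowest among the non-cultured ones for Slc7a5, Slc3a2, Slc38a1 and Slc36a4, which fell, and for Slc6a6, which rose. Their mean over the 12 measured monocyte, macrophage and granulocyte markers was also lower (6.55 and 6.56) than that of the other 3 arrays (7.19 each). Replicates 4 and 5 were lowest for these markers in the cultured groups too. They averaged 7.76 and 7.72 without EV (others 7.83 to 8.02) and 7.65 and 7.66 with EV (others 7.90 to 7.96). With non-cultured replicates 4 and 5 left out, Slc7a1 differed by log2 -1.86 (adjusted p = 6.93e-06) and Slc7a5 by -2.81 (adjusted p = 0.000105). Slc3a2 differed by -1.35 (adjusted p = 8.06e-05) and Slc38a1 by -0.92 (adjusted p = 0.000301). Slc36a4 then differed by -0.76 and Slc6a6 by 0.76, a smaller rise than the 0.93 with all arrays. That fit kept replicates 4 and 5 of the cultured groups, so the groups it compared held unlike sets of replicate numbers. The part of these 2 arrays' cell makeup in the values was not tested.

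Transcripts for carriers of glutamine and small neutral amino acids fell by smaller amounts. Slc38a1 (SNAT1) read 9.46, 9.48, 9.31, 9.01 and 8.97 in non-cultured cells and 8.64, 8.57, 8.60, 8.19 and 8.50 without EV, a 1.68-fold fall (log2 -0.75, SE 0.13, adjusted p = 0.000827). Slc38a2 (SNAT2), which amino acid shortage is known to induce, read 9.70, 9.63, 9.55, 9.58 and 9.66 against 9.11, 9.03, 9.14, 9.39 and 9.18, and fell 1.37-fold (log2 -0.45, SE 0.09, adjusted p = 0.00344). In neither gene did the groups overlap.

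Slc1a5 (ASCT2) had a call that rested on single arrays and on its probe set. It read 7.33, 7.58, 7.36, 7.87 and 7.32 in non-cultured cells and 6.91, 7.25, 7.17, 6.45 and 6.77 without EV (log2 -0.58, SE 0.17, adjusted p = 0.0269). The call was lost without non-cultured replicate 2 (adjusted p = 0.0599) or 4 (adjusted p = 0.0711) and, in the cells cultured without EV, without replicate 4 (adjusted p = 0.0724) or 5 (adjusted p = 0.0642). It was also lost with non-cultured replicates 4 and 5 both left out (log2 -0.52, adjusted p = 0.0977). The dimmer probe set of Slc1a5 differed by log2 -0.24 (SE 0.64). The proline and tryptophan carrier Slc36a4 fell 1.53-fold on its brighter probe set (log2 -0.61, SE 0.12, adjusted p = 0.00282), from 9.02, 9.21, 8.95, 8.85 and 8.51 to 8.25, 8.17, 8.53, 8.30 and 8.21, with 1 of 25 pairs of arrays the other way. With the mean of its probe sets the call was lost (log2 -0.44, adjusted p = 0.121). The dimmer one differed by log2 -0.26 (SE 0.30).

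**Figure D2:**
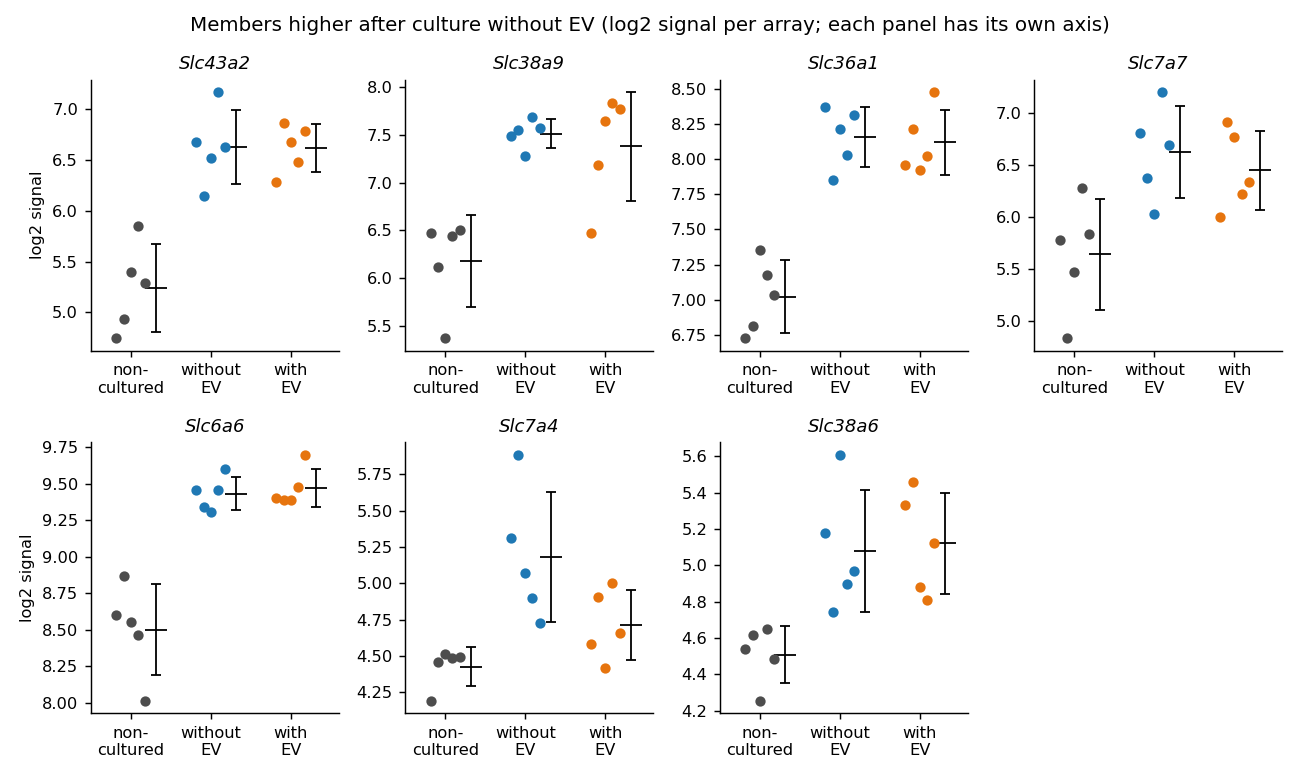
Log2 signal of the 7 members that rose after culture without EV, drawn as 1 point per array with the mean and SD of 5 arrays, each panel on its own axis. Slc36a1, Slc43a2 and Slc6a6 were higher in every cultured array than in every non-cultured array, with and without EV, while Slc7a4 was called without EV and not with EV.

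Slc36a1 and Slc38a9, lysosomal carriers of the mTORC1 pathway, rose, and the lysosomal glutamine exporter Slc38a7 was not called (log2 0.14, SE 0.19, limma adjusted p = 0.747). Slc36a1 (PAT1), a proton-coupled exporter of small amino acids from the lysosome, read 6.73, 6.81, 7.35, 7.18 and 7.03 in non-cultured cells and 8.37, 7.85, 8.21, 8.03 and 8.32 without EV. It rose 2.20-fold (log2 1.13, SE 0.14, limma adjusted p = 4.2e-05) with no overlap. Slc38a9, the arginine sensor, read 6.48, 6.12, 5.37, 6.44 and 6.51 against 7.48, 7.54, 7.28, 7.69 and 7.57. It rose 2.51-fold (log2 1.33, SE 0.25, adjusted p = 0.00157), and non-cultured replicate 3 was the lowest array.

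Slc43a2 (LAT4), a sodium-independent carrier of branched-chain and aromatic amino acids, rose 2.62-fold (log2 1.39, SE 0.20, adjusted p = 0.000193). It read 4.74, 4.93, 5.39, 5.85 and 5.29 in non-cultured cells and 6.68, 6.15, 6.52, 7.17 and 6.63 without EV, with no overlap. Slc6a6, the taurine carrier, read 8.60, 8.87, 8.56, 8.47 and 8.01 against 9.45, 9.34, 9.31, 9.46 and 9.60 and rose 1.91-fold (log2 0.93, SE 0.13, adjusted p = 0.000108). Of the 20 Slc6 members measured, Slc6a6 was the only 1 called in either culture comparison.

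Slc7a7 (y+LAT1), a light chain that exports cationic amino acids and is prominent in macrophages, rose 1.98-fold (log2 0.98, SE 0.26, adjusted p = 0.0179). Its signal was 5.78, 4.83, 5.47, 6.28 and 5.83 in non-cultured cells and 6.81, 6.38, 6.04, 7.21 and 6.69 without EV, so that the groups overlapped in 1 of 25 pairs. Leaving out replicate 4 of the EV-free culture ended the call (adjusted p = 0.0515). Of the 12 monocyte, macrophage and granulocyte markers 6 rose and 1 fell in this comparison, and their mean signal per array ran from 6.55 to 7.19 in non-cultured cells and from 7.72 to 8.02 without EV. S100a8 rose 6.73-fold and S100a9 5.38-fold, the largest rises of the list. Csf1r, the macrophage growth factor receptor, rose 4.73-fold, Lyz2, lysozyme, 3.45-fold and Cd68 2.41-fold. The macrophage surface marker Adgre1, in the dimmest 40% of genes by mean signal, averaged 3.89 before and 4.44 after culture. The marker that fell was Mpo, 1.58-fold (limma adjusted p = 0.000989), and Itgam, Cd14, Ly6g, Elane and Ctsg were not called. The part of these cells in the changes of Slc7a7 and of the other members was not tested, and in bulk samples a change in the share of a cell type cannot be told apart from a change in RNA per cell.

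The other members that rose were Slc7a4, a relative of the cationic carriers, and Slc38a6. Slc7a4 read 4.19, 4.46, 4.51, 4.49 and 4.49 in non-cultured cells and 5.32, 5.88, 5.07, 4.90 and 4.73 without EV (log2 0.75, SE 0.18, adjusted p = 0.00869). Slc38a6 read 4.54, 4.62, 4.25, 4.65 and 4.48 against 5.18, 4.74, 5.61, 4.89 and 4.97 (log2 0.57, SE 0.16, adjusted p = 0.0249). The call of Slc38a6 was lost without non-cultured replicate 3 (adjusted p = 0.0668), without EV-free replicate 1 (adjusted p = 0.054) or 3 (adjusted p = 0.0581), and without both non-cultured replicates 4 and 5 (adjusted p = 0.0606).

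**Figure D3:**
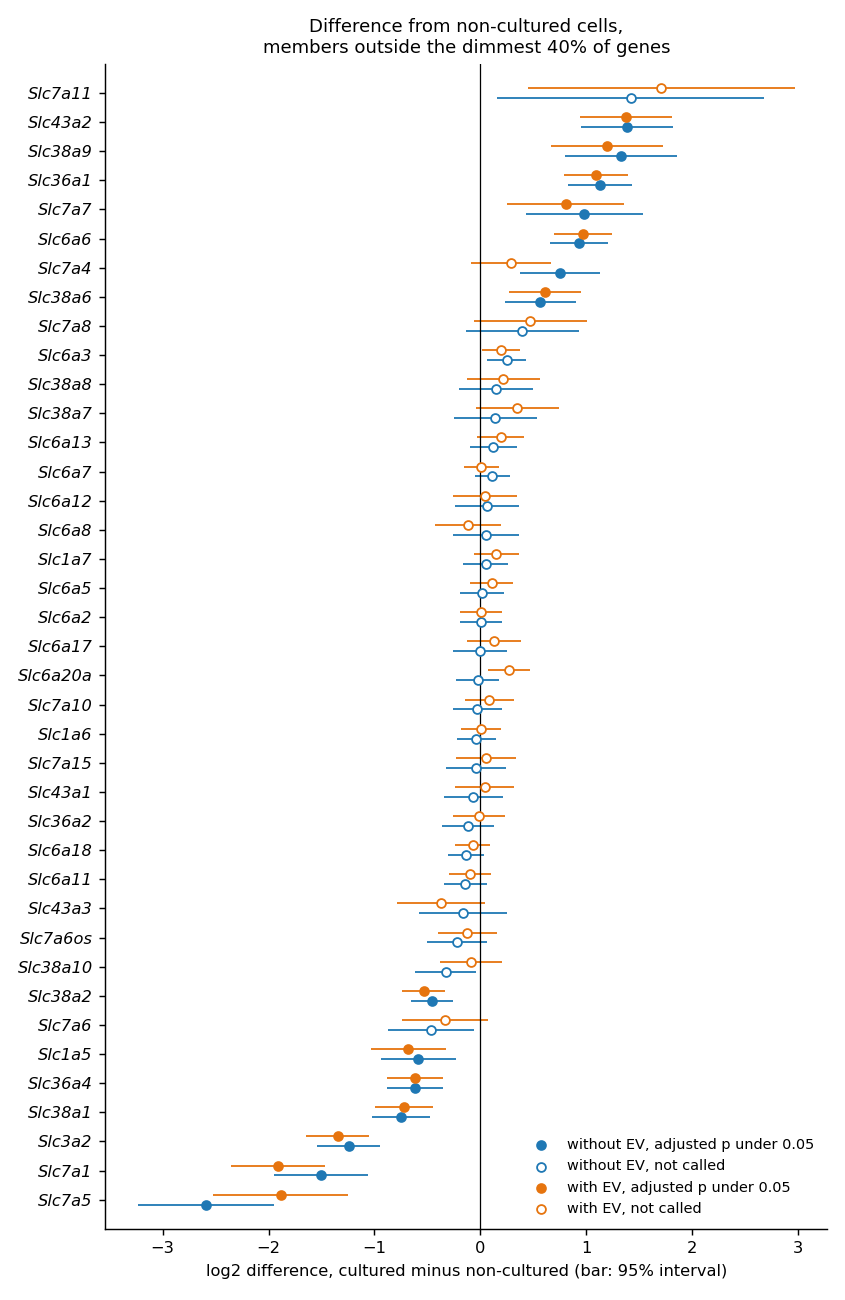
Log2 difference from non-cultured cells for the 39 members outside the dimmest 40% of genes, for culture without EV (blue) and with EV (orange), with 95% intervals. Filled points were called at an adjusted p under 0.05. Slc7a5, Slc7a1 and Slc3a2 lie farthest to the left, and Slc7a11 has the widest intervals.

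Culture with EV was set against the same 5 non-cultured arrays, so this comparison is not independent of the one above. Of the 64 members 6 rose and 7 fell, with 6.28% of all genes higher and 7.85% lower (44.5% of the called genes higher, and 53.5% after quantile normalization), and 13 of 64 (20.3%) were called against 14.1% of all genes. The median difference was 0.07 over the members and 0.04 over all genes. The 13 were all among the 14 called without EV, and the remaining 1, Slc7a4, differed by log2 0.29 (SE 0.18, adjusted p = 0.344).

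With EV, Slc7a1 fell 3.76-fold (log2 -1.91, SE 0.21, limma adjusted p = 1.07e-05), with readings of 5.01, 5.56, 5.78, 5.23 and 5.63. Slc7a5 fell 3.70-fold (log2 -1.89, SE 0.30, adjusted p = 0.00041), with 7.39, 6.70, 7.47, 7.55 and 6.70. Slc3a2 fell 2.54-fold (log2 -1.35, SE 0.14, adjusted p = 6.55e-06), with 7.87, 8.11, 7.90, 7.44 and 8.07. All these arrays lay below the non-cultured ones. Slc38a1 (log2 -0.72, SE 0.13), Slc1a5 (-0.68, SE 0.17), Slc36a4 (-0.62, SE 0.12) and Slc38a2 (-0.54, SE 0.09) also fell, without overlap.

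On the rising side, Slc43a2 differed from non-cultured cells by log2 1.38 (SE 0.20, limma adjusted p = 0.000214) with EV, and its 5 arrays ran from 6.28 to 6.86. Slc38a9 differed by 1.20 (SE 0.25, adjusted p = 0.00348), with replicate 1 at 6.47 inside the non-cultured range and the other 4 arrays between 7.18 and 7.83. Slc36a1 differed by 1.10 (SE 0.14, adjusted p = 5.71e-05), Slc6a6 by 0.97 (SE 0.13, adjusted p = 7.42e-05) and Slc38a6 by 0.61 (SE 0.16, adjusted p = 0.016), each without overlap. Slc7a7 passed narrowly (log2 0.81, SE 0.26, adjusted p = 0.0493). That call held in only 4 of the 15 fits that left out 1 array, with adjusted p up to 0.124, which was reached without non-cultured replicate 2. Replicate 1 with EV had the lowest mean correlation with its own group (0.964, with 0.974 to 0.976 for the other 4 arrays with EV), and without it Slc38a9 differed by 1.42 and Slc7a7 by 0.92 (adjusted p = 0.0349).

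The cystine carrier Slc7a11 had the largest difference of all members on the rising side and was not called. On its brighter probe set the 5 arrays read 5.33, 3.75, 4.19, 3.17 and 4.33 in non-cultured cells. They read 6.79, 6.76, 5.86, 3.37 and 5.10 without EV, and 6.23, 6.66, 6.47, 4.57 and 5.41 with EV. Replicate 4 was the lowest array in each group. The difference was log2 1.42 without EV (SE 0.59, limma adjusted p = 0.144) and 1.71 with EV (SE 0.59, adjusted p = 0.0688).

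With replicate 4 of the EV-free culture left out, the difference of Slc7a11 in that group was 1.97 (adjusted p = 0.0142), and the call with EV depended on the setting and on single arrays. It was called there with the dimmest 40% of genes left out (adjusted p = 0.0422), with the mean of both probe sets (adjusted p = 0.0132), with only the 10 arrays compared (adjusted p = 0.0254) and with a replicate block (adjusted p = 0.00471). It was also called without replicate 4 with EV (adjusted p = 0.0366), without non-cultured replicate 1 (adjusted p = 0.0452) and without EV-free replicate 4 (adjusted p = 0.0206). The dimmer probe set of Slc7a11 read 4.58, 4.41, 3.65, 3.80 and 3.97 in non-cultured cells and 4.50, 5.42, 5.03, 4.76 and 4.78 without EV. With EV it read 4.64, 6.45, 6.45, 4.83 and 5.24, with every array above the highest non-cultured one. When all probe sets were fitted, it differed by log2 1.44 with EV (SE 0.35, adjusted p = 0.017) and by 0.82 without EV (SE 0.35, adjusted p = 0.199).

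**Figure D4:**
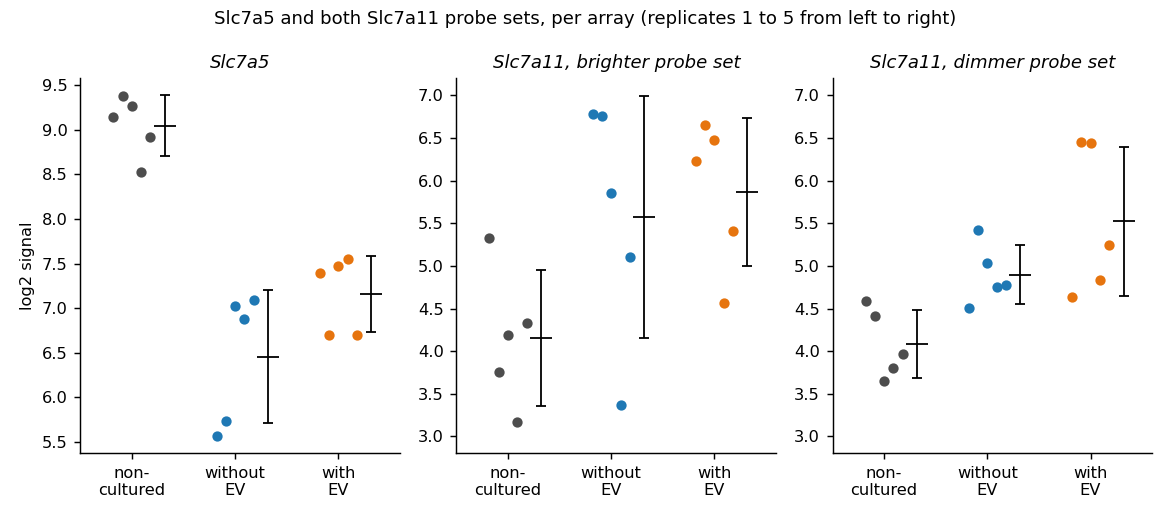
Log2 signal per array of Slc7a5 (left) and of both probe sets of Slc7a11 (middle and right, drawn to the same axis), with replicates 1 to 5 from left to right in each group and the mean and SD of 5 arrays as bars. Slc7a5 replicates 1 and 2 without EV were the lowest (5.56 and 5.73), and replicate 4 of the brighter Slc7a11 probe set was the lowest in each group.

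Other light chains that pair with SLC3A2 were not called in either culture comparison. Slc7a6 (y+LAT2) differed by log2 -0.47 without EV (SE 0.19, limma adjusted p = 0.137), Slc7a8 (LAT2) by 0.40 (SE 0.25, adjusted p = 0.388) and Slc7a10 by -0.03 (SE 0.11, adjusted p = 0.93). With EV the differences were -0.33, 0.47 and 0.09 in that order.

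The remaining members were not called. Outside Slc6a6, the 19 other Slc6 members ranged from log2 -0.14 (Slc6a11) to 0.25 (Slc6a3, the dopamine transporter) without EV and from -0.12 to 0.27 with EV. The 6 Slc1 members other than Slc1a5 ranged from -0.08 to 0.07 without EV, and the 7 uncalled Slc38 members from -0.33 (Slc38a10) to 0.15 (Slc38a8). Slc43a1 (LAT3) and Slc43a3, a purine base carrier in spite of its family, differed by -0.06 and -0.16 without EV. Of the 64 members, 25 lay in the dimmest 40% of genes by mean signal and none of these was called in any comparison, where differences ran from -0.12 to 0.24 without EV. No measure of background is given with the values, so for these dim genes an absent transcript and an unchanged one cannot be told apart.

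The comparison of culture with EV against culture without EV asks what the vesicles change. No member was called: 0 of 64 by limma, with 0.198% of all genes called (0.180% higher and 0.0180% lower with EV), and 3 of 64 members (4.69%) had an unadjusted p under 0.05, as had 6.82% of all genes. In 0 of 64 members were the groups free of overlap, and over all genes 0.762% were higher and 0.437% lower without overlap. The median difference was 0.05 over the members and 0.01 over all genes.

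**Figure D5:**
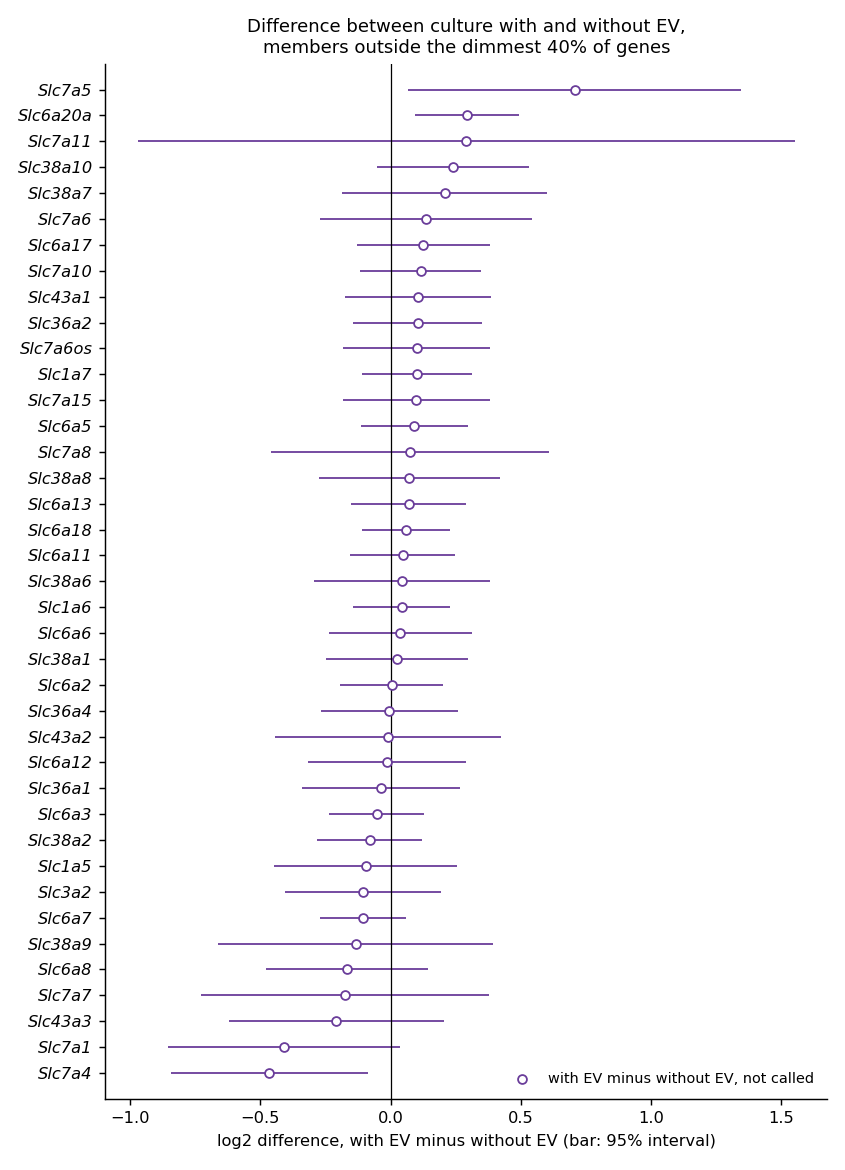
Log2 difference of culture with EV minus culture without EV for the 39 members outside the dimmest 40% of genes, with 95% intervals. No member was called, and the intervals of Slc7a5, Slc6a20a and Slc7a4 lie to one side of 0 before adjustment.

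Slc7a5 had the largest difference, log2 0.71 higher with EV (SE 0.30, 95% interval 0.07 to 1.35, limma adjusted p = 0.692), in 19 of 25 pairs of arrays. Replicates 2 and 5 with EV (6.70 each) lay below replicates 3 to 5 without EV. Slc6a20a, a proline carrier, was 0.29 higher (SE 0.09, 95% interval 0.09 to 0.49, adjusted p = 0.518) in 24 of 25 pairs: its arrays read 5.98, 5.63, 5.91, 5.80 and 5.86 with EV and 5.68, 5.55, 5.23, 5.62 and 5.62 without. Slc7a4 was 0.47 lower with EV (log2 -0.47, SE 0.18, adjusted p = 0.627), with readings of 4.58, 4.91, 4.42, 5.00 and 4.66 that overlapped those without EV.

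Slc7a1 differed by log2 -0.41 (SE 0.21, 95% interval -0.85 to 0.03, limma adjusted p = 0.75) and Slc38a10 by 0.24 (SE 0.14, adjusted p = 0.771). The dimmer probe set of Slc38a10 went the other way (log2 -0.19, SE 0.18) and, with all probe sets fitted, was lower with EV than in non-cultured cells (log2 -0.66, SE 0.18, limma adjusted p = 0.0278), where the brighter one differed by -0.09. Each 95% interval is for 1 gene and is not adjusted for the number of genes. Among members that changed with culture, it was -0.40 to 0.19 for Slc3a2, -0.34 to 0.27 for Slc36a1 and -0.24 to 0.31 for Slc6a6. For Slc43a2 it was -0.45 to 0.42 and for Slc38a9 -0.66 to 0.39. For Slc7a11 the interval of -0.97 to 1.55 left room for large changes either way.

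Genes of the pathways around these carriers were followed with lists. For every list count below, 6.75% of all genes rose and 6.88% fell without EV. With EV 6.28% of all genes rose and 7.85% fell, and no list was tested as a set. Of 23 measured amino acid response genes, 11 fell and 2 rose without EV, and 10 fell and 1 rose with EV (median log2 -0.26 and -0.11). The transcription factor Atf4, the response's regulator, averaged 10.7 in non-cultured cells and 9.74 without EV. Phgdh and Psat1 of serine synthesis fell 3.60-fold and 2.61-fold without EV (limma adjusted p = 1.3e-05 and 3.79e-05), and Mthfd1l, a folate enzyme, 2.16-fold (adjusted p = 7.56e-06). Ddit4, an inhibitor of mTORC1 that glucocorticoids and low oxygen also induce, rose 4.07-fold (adjusted p = 8.98e-05). With EV against without EV 0 of the 23 were called, and the 4 with the smallest p went both ways. Phgdh differed by log2 0.57 (SE 0.21, adjusted p = 0.588) and Cebpg by 0.44 (SE 0.13, adjusted p = 0.461). Vldlr differed by -0.49 (SE 0.16, adjusted p = 0.538) and Nupr1 by -0.72 (SE 0.29, adjusted p = 0.67).

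Of 9 measured genes of cystine use and glutathione synthesis, 5 rose without EV and 6 with EV, and none fell (median log2 0.88 and 0.66). Gclm and Gclc, which form glutamate-cysteine ligase, rose 7.02-fold and 2.39-fold without EV (limma adjusted p = 4.83e-10 and 2.18e-06). Gss, glutathione synthetase, rose 1.88-fold (adjusted p = 7.9e-05). Glutathione is built from cysteine, for which imported cystine is a source, and the cystine carrier Slc7a11 itself was not called.

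Polyamine genes were among those that fell. Of 11 measured arginine and polyamine genes, 3 fell and 1 rose without EV. The ornithine decarboxylase Odc1 averaged 8.79 in non-cultured cells and 7.17 without EV (limma adjusted p = 2.58e-07), its antizyme inhibitor Azin1 fell 2.40-fold (adjusted p = 4.39e-05) and the spermidine synthase Srm 1.53-fold (adjusted p = 0.0365). The arginine-using enzymes Arg1 (log2 -0.36), Arg2 (0.13) and Nos2 (0.21) were not called. Sat1, which breaks polyamines down, rose 1.94-fold (adjusted p = 1.61e-05). Of 9 measured glutamate and glutamine enzymes, 2 fell and 1 rose without EV: the transaminase Got2 fell 1.68-fold (adjusted p = 0.00121) and Oat, which makes glutamate from ornithine, 1.82-fold (adjusted p = 0.0127), and Glul, glutamine synthetase, rose 1.21-fold (adjusted p = 0.0169).

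Among 34 measured genes of amino acid sensing by mTORC1, 5 rose and 1 fell without EV, and 3 rose and 1 fell with EV. Of all genes 13.6% were called without EV and 14.1% with EV, and the list was not tested against these shares. Lamtor3, part of the lysosomal scaffold on which SLC38A9 acts, rose 2.17-fold without EV (limma adjusted p = 0.00278), the Rag regulator Flcn 1.65-fold (adjusted p = 0.00248) and Mtor 1.39-fold (adjusted p = 0.00267). With EV against without EV, 0 of these 34 were called.

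The labelled cell type was checked against its markers. The 7 measured LSK and early progenitor markers averaged 8.67 to 9.02 per array in non-cultured cells, 8.91 to 9.13 without EV and 8.57 to 9.11 with EV. Of these 7, Flt3, Gata2 and Kit rose and Cd48 fell without EV (3 and 1), and 1 rose with EV, Flt3. T and NK cell markers averaged 3.76 to 4.18 over all arrays and stromal markers 4.21 to 4.49. Between culture with and without EV 0 of 10 stromal markers were called, and the chemokine gene Cxcl12 differed most (log2 0.50, SE 0.13, limma adjusted p = 0.33). Cxcl12, Col1a1 (log2 0.32) and the dim Pdgfra (0.33) were higher with EV at an unadjusted limma p under 0.05, and none was lower. Of all genes 6.82% passed that threshold in either direction. Stromal means per array ran from 4.21 to 4.49 with EV and from 4.25 to 4.29 without. Against non-cultured cells, Cxcl12 (log2 0.48) and the collagen gene Col1a2 (0.31) rose and Thy1 (-0.76) fell with EV, and Thy1 alone fell without EV. The part of stromal RNA in the members' values was not tested. The number of arrays sets the precision, with a median SE of 0.13 for EV against without EV over all genes.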

How the data were processed

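RNA of LSK cells was measured on 15 arrays in 3 groups of 5, from 500 pg of total RNA a sample, per the labels' protocols. The authors' deposited table holds 41345 probe sets, log2 signals by their range (1.40 to 13.0). The submitters' processing notes name MAS5 alone, with no role or version; background correction and normalization were not given, and they set how far low signals are compressed. Array medians lay between 4.62 and 4.74, and 0 of 105 array pairs held identical values.

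Probe sets with exactly 1 symbol in the platform annotation (23521) were kept, each gene being read from its brightest probe set by mean signal, which left 22180 genes. All 64 members matched the RefSeq table of GRCm38.p6. Group means were estimated over the 15 arrays in limma 3.58.1 (R 4.3.3, 12 residual and 3.66 prior degrees of freedom), with two-sided moderated tests and Benjamini-Hochberg adjustment over all genes, and the code was tested on simulated data. The 95% intervals are not adjusted for the number of genes.

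Alternatives were quantile normalization, median centring, leaving out the dimmest 40% of genes, the mean of a gene's probe sets, all probe sets, the compared arrays alone, an intensity trend, array weights, a replicate block, leaving out each array, and leaving out non-cultured replicates 4 and 5. Members, lists, motifs and tests were chosen with earlier results of these data known. The naming rule took called members, the 5 smallest p for EV against without EV, uncalled members as such, and up to 4 genes of a list by smallest p. Atf4 and the single markers were named after their values were seen, and Arg1, Arg2 and Nos2 were named outside that rule. The series text describes the replicates as biological; whether they came from separate animals is not stated, so p-values measure the spread between these samples.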

Additional observations from a re-analysis of the deposited data

Results flagged for a closer look

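Single arrays far from the other 4 of their group were sought in the 20 members with a call, an unadjusted p under 0.05 in any comparison, or a place among the 5 smallest p for EV against without EV. Of 60 groups 5 stood out by the Dixon test at 5%, where chance gives about 1 in 20. Replicate 1 with EV was high for Slc38a1 (8.86, with the other arrays at 8.39 to 8.51), for Slc3a1, the heavy chain of the kidney cystine carrier (4.19, others 3.83 to 3.91), and for Slc6a3 (5.26, others 4.96 to 4.99). Replicate 5 with EV was high for Slc6a6 (9.70, others 9.39 to 9.48). Non-cultured replicate 1 was low for Slc7a4 (4.19, others 4.46 to 4.51). For Slc3a1, replicates 3 and 5 with EV held the same value (3.8287), which narrows the spread of the other arrays.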

How the results depend on the processing

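The count of members called stayed within 1.5 times its reported value under every alternative run: 12 to 15 for without EV against non-cultured (13 to 15 when 1 array was left out), 12 to 14 for with EV against non-cultured (12 to 14) and 0 for EV against without EV (0 to 0). No called member changed sign. Of the 14 members called without EV, 11 kept their call in each of the 15 fits that left out 1 array, and of the 13 called with EV 12 did, the exception being Slc7a7. With the mean of all probe sets Slc1a5 lost its calls (log2 -0.41 without EV, adjusted p = 0.556, and -0.87 with EV, adjusted p = 0.111), as did Slc36a4 (-0.44, adjusted p = 0.121, and -0.51, adjusted p = 0.0628); the cause was not tested. Slc6a3 was called without EV after quantile normalization (adjusted p = 0.047), median centring (adjusted p = 0.0354) and with array weights (adjusted p = 0.0308), and also without replicate 1 with EV (adjusted p = 0.0344) or non-cultured replicate 3 (adjusted p = 0.0279). Slc6a20a was called with EV after quantile normalization (adjusted p = 0.0451), without replicate 2 with EV (adjusted p = 0.0367) and without EV-free replicate 3 (adjusted p = 0.0328). With the replicate number as a block, 13 members were called without EV, 13 with EV and 0 for EV against without EV. Under that block Slc1a5 (adjusted p = 0.0566) and Slc38a6 (adjusted p = 0.0538) were not called without EV, and Slc7a7 was not called with EV (adjusted p = 0.0728). Slc7a11 was called without EV (adjusted p = 0.0137) and with EV (adjusted p = 0.00471). Whether the numbers pair the arrays is not settled by the values. Deviations of same-numbered arrays from their group means correlated at 0.02 to 0.19 for EV against without EV. They correlated at -0.09 to 0.03 for without EV against non-cultured and at -0.12 to 0.06 for with EV against non-cultured. Between arrays of different number the correlation reached 0.07, 0.07 and 0.11 in that order. Replicates 4 and 5 had the lowest mean of the monocyte, macrophage and granulocyte markers in each group. For EV against without EV, 1 of 5 arrays with EV and 3 of 5 without EV correlated best with their own number. Signal over background is not given, which limits what can be said of the 25 dimmest members.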

Other observations

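Transporters of lysosomes and peptides outside these families also differed after culture. Of 11 measured, 4 rose and 1 fell without EV, and 3 rose and 1 fell with EV. Over all genes 6.75% rose and 6.88% fell without EV, and 6.28% rose and 7.85% fell with EV. Ctns, the lysosomal cystine exporter, rose 2.27-fold without EV (log2 1.18, SE 0.12, limma adjusted p = 6.68e-06) and 2.56-fold with EV (log2 1.36, SE 0.12, adjusted p = 1.5e-06). Slc17a5, the lysosomal sialic acid exporter, rose by 0.86 without EV (SE 0.18, adjusted p = 0.00319) and by 0.60 with EV (adjusted p = 0.0333). Slc15a3, a lysosomal carrier of histidine and small peptides, differed by log2 -0.65 (SE 0.14, adjusted p = 0.00448) and -0.62 (adjusted p = 0.00624). None of the 11 was called for EV against without EV (0 by limma), where Mfsd12, a cysteine importer of lysosomes and melanosomes, differed by -0.30 (SE 0.09, adjusted p = 0.492).

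Genes of branched-chain amino acid breakdown, whose substrates Slc7a5 and Slc43a2 carry, gave few calls: of 14 measured, 1 rose without EV, Mccc1 of leucine breakdown (log2 0.59, SE 0.16, limma adjusted p = 0.02), and 0 were called with EV. Bckdhb differed by -0.54 with EV (SE 0.18, adjusted p = 0.0503).

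The Slc38a10 value of 7.17 was identical to the last deposited digit on 4 arrays, non-cultured replicates 2 and 3 and replicates 2 and 3 with EV. Other members also repeated a value across arrays, among them Slc6a2 (4.5985), Slc6a5 (4.5963), Slc3a1 (3.8287) and Slc6a8 (5.3937). Of all 41345 probe sets, 29.8% held an equal value on 2 or more arrays. The part of such repeats in the spread within groups was not tested.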
